A study of Mus musculus with 4 samples.

Results

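Nr2f2, Tcf21, Maf, Gli1, Ptch1, Pdgfra and Pdgfrb are 7 genes commonly used as markers of ovarian stroma and mesenchyme, and their chromatin accessibility was described here in germ cells sorted from female C57BL/6 embryos of the mouse at E15.5. They are 7 of the 21887 protein-coding genes placed on the genome, and were chosen by name as stromal markers with earlier results of these data known. ATAC-seq, which marks open DNA by the insertion of adapters with a transposase, gave 2 libraries from Snf5 CKO embryos (a conditional knockout of Snf5) and 2 from Control embryos. Both groups were sorted with Oct4-EGFP, a fluorescent reporter of germ cells. For the Cre driver, the floxed allele, the alleles of the Control embryos and any pooling of embryos, the labels used here give nothing. Snf5, the product of Smarcb1, belongs to the core of the chromatin remodelling complex SWI/SNF, and the series is about this complex in meiotic gene activation. Separate animals are not stated for the 2 libraries of a group, and their spread may therefore be technical.

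The fetal ovary holds germ cells, supporting cells and an interstitium of stromal progenitors. COUP-TFII, the nuclear receptor encoded by Nr2f2, and the basic helix-loop-helix factor encoded by Tcf21 mark gonadal mesenchyme, and Maf encodes a large leucine zipper factor of the interstitium that macrophages also use. Ptch1 encodes the receptor of Hedgehog ligands and Gli1 a zinc finger factor activated by the pathway, and both genes are also transcriptional targets of Hedgehog signalling. Pdgfra and Pdgfrb encode receptor tyrosine kinases for platelet-derived growth factors, used to mark fibroblast-like cells and, for Pdgfrb, pericytes.

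A member counted as open in a library if 1 bp or more of a peak fell within 1 kb of either annotated gene end. It was called kept when open in all 4 libraries, lost when open in both Control and in neither Snf5 CKO library, and gained in the reverse case. The domain of a gene is the gene plus 20 kb on each side. The authors deposited 1 list of broad peaks per library, with 45422 and 28625 peaks in Snf5 CKO 1 and 2 and 39465 and 36730 in Control 1 and 2. Read depth is unknown, so open DNA below a library's detection limit would be missed. Smarcb1 had no gene-end peak in either Snf5 CKO library, against 929 and 1139 bp of gene-end peak in Control 1 and 2. This goes with the labels but is a weak check, since they do not place the deletion within the gene. The same lost call was made for 2.97% of all protein-coding genes. Each library also held 83 to 209 peaks on chromosome Y, although the label is female, but none lay at the ends of the Y genes Ddx3y, Kdm5d, Uty or Eif2s3y. A weaker peak in a bulk sample can come from fewer cells with open chromatin or from less opening in each cell, and these cannot be told apart. The contrast of the groups was known when the genes were chosen and has 2 libraries against 2, so no test was made and every difference below is a description.

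RefSeq promoter windows (GRCm38.p6, 250 bases before to 50 after the start) were matched for 4 of the 7 members. Maf, Gli1 and Pdgfrb had no entry. The windows of Nr2f2, Tcf21 and Pdgfra are shown because none of them had a base under a peak in any library, although each gene had peaks elsewhere in its domain. Each sequence runs 5′ to 3′ on the gene's own strand, in lower case throughout since no base lay under a peak.
Nr2f2 (chr7:70366697-70366996, minus strand): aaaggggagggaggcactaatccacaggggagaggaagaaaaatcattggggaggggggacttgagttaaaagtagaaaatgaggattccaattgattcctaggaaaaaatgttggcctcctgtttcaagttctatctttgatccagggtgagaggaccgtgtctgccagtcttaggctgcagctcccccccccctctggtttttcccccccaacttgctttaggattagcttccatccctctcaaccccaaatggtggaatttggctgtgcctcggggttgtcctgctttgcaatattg
Tcf21 (chr10:22820094-22820393, minus strand): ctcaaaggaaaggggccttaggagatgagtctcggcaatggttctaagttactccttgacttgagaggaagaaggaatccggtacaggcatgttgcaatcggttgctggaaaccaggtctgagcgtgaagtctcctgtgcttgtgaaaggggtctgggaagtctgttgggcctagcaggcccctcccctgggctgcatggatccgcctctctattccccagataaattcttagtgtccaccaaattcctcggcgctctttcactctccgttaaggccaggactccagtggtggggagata
Pdgfra (chr5:75152001-75152300, plus strand): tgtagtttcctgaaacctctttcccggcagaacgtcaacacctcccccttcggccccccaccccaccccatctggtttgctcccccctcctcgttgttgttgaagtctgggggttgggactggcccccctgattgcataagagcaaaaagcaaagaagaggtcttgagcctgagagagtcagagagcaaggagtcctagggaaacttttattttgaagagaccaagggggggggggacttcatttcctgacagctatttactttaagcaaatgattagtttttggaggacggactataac

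None of these windows was richer in CpG than the median of all RefSeq promoters. The observed over expected CpG ratio was 0.109 for Nr2f2, 0.378 for Tcf21 and 0.256 for Pdgfra, against a median of 0.384 over all 32851 windows. The share of all promoter windows touched by a peak was 41.4% and 38.6% in Snf5 CKO 1 and 2, against 44.2% and 44.0% in Control 1 and 2. A search of both strands for 7 short motifs found the letters CCAAT at 2 places in Nr2f2 and no motif in Tcf21 or Pdgfra. CCAAT occurs in 37.4% of all windows. The other motifs, absent from these windows, were GGGCGG (SP site, in 35.7% of all windows), ACCACCC (GLI core, in 4.61% of all windows), CAGCTG (E-box, 16.3%), AGGTCA (nuclear receptor site, 16.3%), TGCTGA (MARE core, 19.5%) and TGANTCA (AP-1, 7.81%).

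At the gene ends, 2 of the 7 members were kept, none was lost, none was gained, 2 had no peak in any library and 3 were open in part of the libraries. Over all protein-coding genes, 55.0% were kept, 2.97% lost, 0.187% gained, 33.6% without a peak in any library and 8.29% open in part. The kept pair was Maf and Gli1, and the pair without a peak was Pdgfra and Pdgfrb. Nr2f2, Tcf21 and Ptch1 shared one pattern, open in Snf5 CKO 1 and in both Control libraries and without a peak in Snf5 CKO 2. Snf5 CKO 2 also has the shortest peak list, with 56.4% of all genes open against 60.4% in Snf5 CKO 1 and 63.3% and 63.0% in Control 1 and 2, and the part of list length in the pattern was not tested. Without Snf5 CKO 1, 3 members would count as lost, and without Snf5 CKO 2, 5 would count as kept. A call then asks for fewer libraries, so such counts can rise and cannot fall.

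With peaks of −log10 q of 3 or more, the gene-end counts were 2 lost (Gli1 and Ptch1), none kept, none gained, 4 without a peak in any library, and 1, Maf, open in part. The background at that threshold was 3.84% lost, 48.9% kept, 0.375% gained, 37.5% without a peak and 9.4% open in part. Most gene-end peaks of the members thus lay under this threshold. The Ptch1 call rests on its outer annotated end. Its RefSeq start lies farther inside the gene, in a region with peaks of this strength in all 4 libraries. Open members numbered 1 in each Snf5 CKO library, against 3 in Control 1 and 2 in Control 2. The share of all protein-coding genes open was 54.1% and 51.7% in Snf5 CKO 1 and 2, against 59.1% and 58.7% in Control. With all peaks, open members numbered 5 and 2 in Snf5 CKO, against 5 and 5 in Control.

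**Figure D1:**
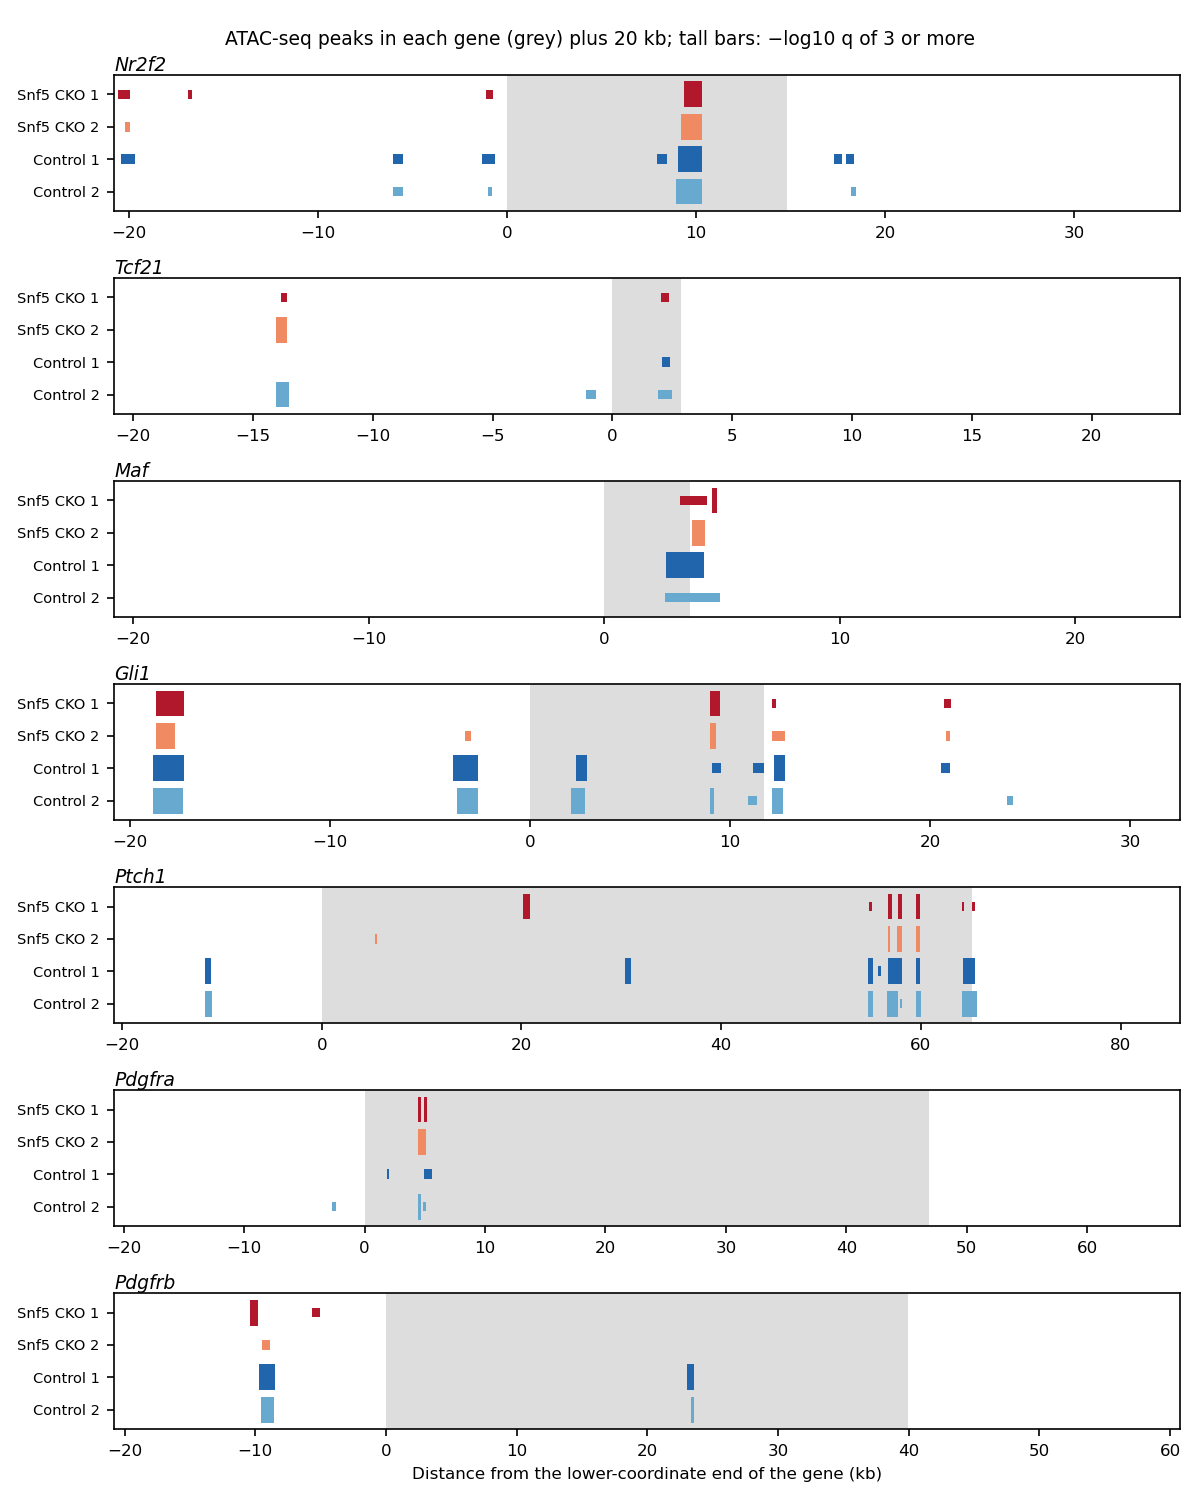
Peaks in the domain of each member, drawn to scale as distance in kb from the lower-coordinate end of the gene, with the gene in grey and 1 row per library (Snf5 CKO 1, Snf5 CKO 2, Control 1, Control 2). Tall bars have a −log10 q of 3 or more and low bars less. Pdgfra and Pdgfrb have peaks in the gene body or flank and none at a gene end.

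Peaks covered fewer bases in Snf5 CKO than in Control across the members' domains. Summed over the 7 domains, 10387 and 7304 bp lay under peaks in Snf5 CKO 1 and 2, against 19312 and 17313 bp in Control 1 and 2. The means were 8846 ± 2180 bp in Snf5 CKO and 18313 ± 1414 bp in Control (SD, n = 2 each), a difference larger than the spread within either group. The number of peaks was 23 and 15 in Snf5 CKO, against 27 and 26 in Control. In 6 of the 7 domains both Snf5 CKO libraries had fewer covered bases than both Control libraries, the exception being Tcf21, where the groups overlapped. Over the 19200 genes with any domain peak, 61.1% showed the same order and 4.58% the reverse, so most genes had it. With a −log10 q of 3 or more, 4 of the 7 domains had fewer bases in both Snf5 CKO libraries and 1 had more, against 63.6% and 4.18% of genes. On the log2 scale, the ratio of mean covered bases, Snf5 CKO over Control, had a median of -1.05 over the 7 members and of -0.48 over the 17617 genes with peaks in both groups, whose 10th to 90th percentiles were -1.26 and 0.14. With all peaks, every member lay within that interval. With a −log10 q of 3 or more the percentiles were -1.33 and 0.09, and 4 of the 7 members lay outside them, Pdgfra at 2.4, Pdgfrb at -2.26, Ptch1 at -1.52 and Gli1 at -1.35.

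The summed length of gene-end peaks was lower too, with a missing peak counted as 0 bp. Over the 5 members with gene-end peaks in both groups, the median log2 ratio of peak length was -1.28, beside -0.42 over 13058 genes (10th percentile -1.16). In Nr2f2, Tcf21 and Ptch1 the Snf5 CKO 2 value was 0 bp, so their ratios include a missing peak. Only Maf and Gli1 had gene-end peaks in every library, with log2 ratios of -1.05 and -1.28. In Tcf21, Maf, Gli1 and Ptch1 both Snf5 CKO values lay below both Control values, and in Nr2f2 the groups overlapped. The Tcf21 groups came close, at 326 bp in Snf5 CKO 1 and 369 bp in Control 1, from peaks with a −log10 q of 1.15 and 1.39. Among genes with any gene-end peak, 72.3% had both Snf5 CKO values below both Control values and 1.56% the reverse.

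**Figure D2:**
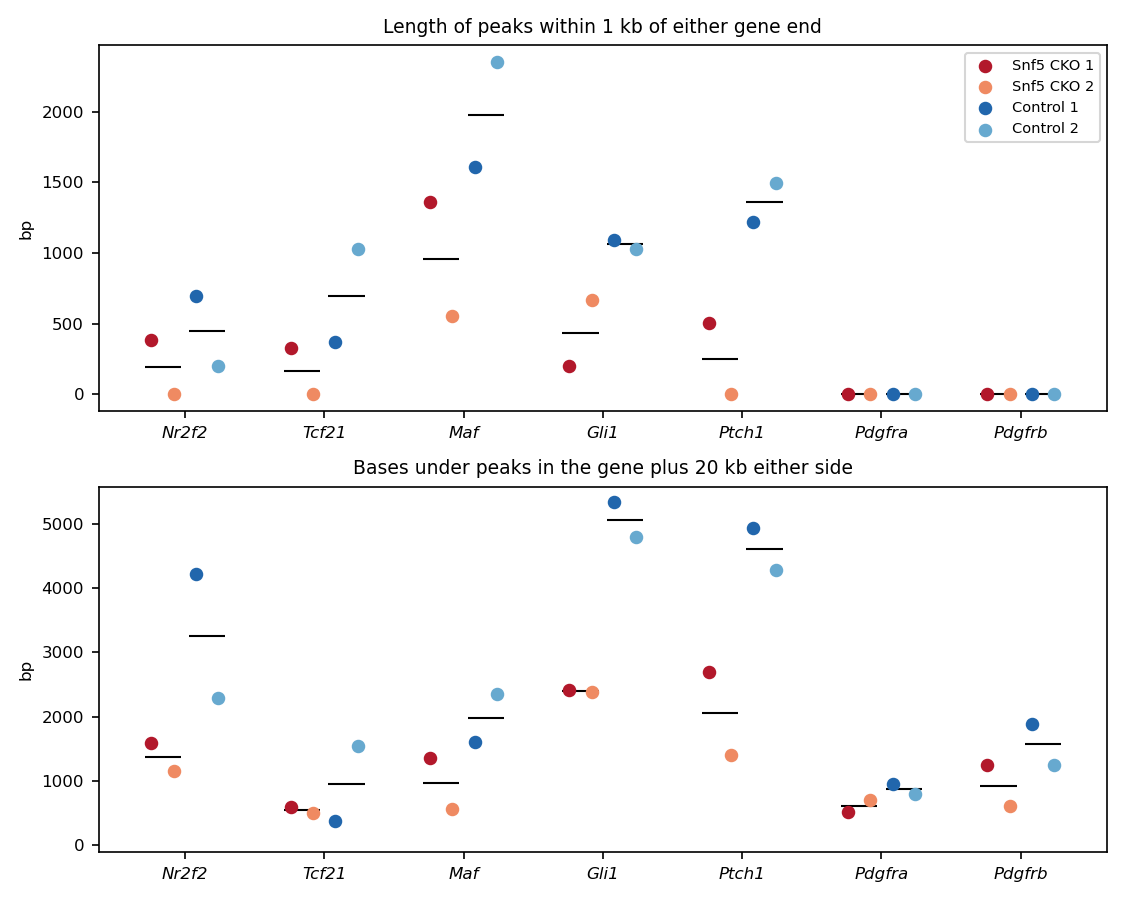
Length in bp of the peaks that touch the gene-end windows (top) and bases in bp under peaks in the domain (bottom), for each member on the horizontal axis. Points are libraries, with the Snf5 CKO pair left of the Control pair, and lines are group means (n = 2 each). In the lower panel the groups overlap in Tcf21 alone.

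The peaks of the 4 lists merged into 36 regions in the 7 domains, of which 8 were kept, 6 lost, none gained and 22 open in other combinations. Over all 66058 merged regions, 29.4% were kept, 7.58% lost and 5.08% gained. The 6 lost regions lay in the domains of Nr2f2 (2), Gli1 (2), Ptch1 (1) and Pdgfrb (1). Thus 4 of the 7 domains held a lost region and 5 a kept one, against 23.1% and 73.3% of all genes, and 11.3% of all genes had a gained one. Of the other 22, 13 had a peak in 1 library only, 6 in both Control and 1 Snf5 CKO library, and 3 in both Snf5 CKO and 1 Control library. With 1 library left out, a call asks for fewer libraries, so these counts can rise and can hardly fall. By that looser rule, 10 regions would be lost without Snf5 CKO 1 and 11 without Control 2. Likewise, 1 would be gained without Snf5 CKO 1, 4 without Snf5 CKO 2, 2 without Control 1 and 1 without Control 2. The shares over all regions by the looser rule were not computed. With −log10 q of 3 or more, 20 regions were left, 4 of them kept, 8 lost and none gained, against 35.1%, 7.51% and 5.12% of 42435 regions in all. Of the 8, 3 each lay in the domains of Gli1 and Ptch1 and 2 in that of Pdgfrb. They include regions overlapping Arhgap9 (Gli1 domain), at an end of Fancc (Ptch1 domain) and at ends of Cdx1 and Gm52351 (Pdgfrb domain). In 5 of the 8 kept regions both Snf5 CKO libraries had fewer bases under peaks than both Control libraries, and in none more, against 60.2% and 6.39% of all kept regions.

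The members' peaks were weak within their own lists. The fold enrichment that the authors' peak caller gave had a median of 3.27 and 3.64 over the 23 and 15 member peaks of Snf5 CKO 1 and 2, and of 2.76 and 2.92 over the 27 and 26 of Control 1 and 2. The medians of the whole lists were 4.13 and 4.41 in Snf5 CKO and 3.86 and 3.91 in Control. The member peaks above their list's median numbered 6 and 4 in Snf5 CKO 1 and 2 and 4 and 4 in Control 1 and 2. A −log10 q of 3 or more was reached by 47.8% and 60.0% of member peaks in Snf5 CKO, where the lists had 64.5% and 75.6%, and by 51.9% and 57.7% in Control, where the lists had 69.7% and 70.0%. Fold enrichment is the authors' own value within each list, and its differences between lists were not read as change.

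**Figure D3:**
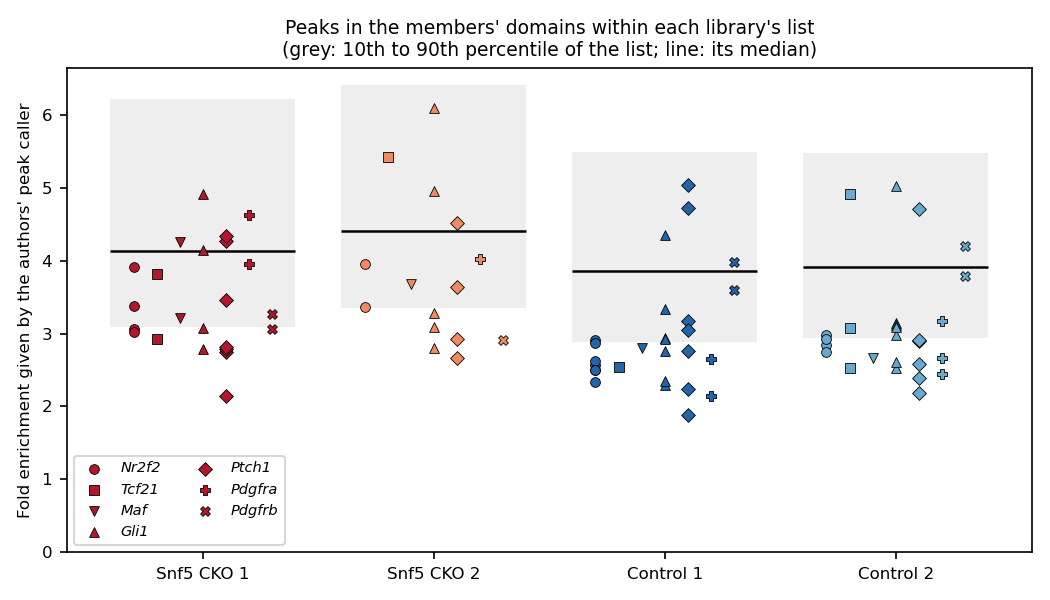
Fold enrichment, as given by the authors' peak caller, of each peak in the members' domains (symbols by gene), by library. Grey bars run from the 10th to the 90th percentile of the library's whole list and the black line is its median, which is 4.13 and 4.41 in Snf5 CKO and 3.86 and 3.91 in Control. Most member peaks lie below the line in each library.

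Nr2f2 (gene identifier 11819, chromosome 7, 70351946 to 70366746, minus strand) had peaks in its body and none at its RefSeq start. The promoter table used here gives 1 start for this gene, and peaks were not set against any other start. The strongest evidence was 1 kept region inside the gene at 70360860 to 70362270, the only Nr2f2 region with a −log10 q of 3 or more, reached in all 4 libraries. There the peak measured 949 and 1128 bp in Snf5 CKO 1 and 2, against 1265 and 1376 bp in Control 1 and 2, where the authors' fold was 3.92 and 3.95 within the Snf5 CKO lists, and 2.87 and 2.93 within those of Control. No peak touched the promoter window printed above, and the nearest peak to the start was 4476 and 4488 bp away in Snf5 CKO, against 2493 and 3417 bp in Control.

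The gene-end peak of Nr2f2 lay just past its lower-coordinate end, which is the 3′ end on the minus strand. It measured 388 bp in Snf5 CKO 1 and was missing in Snf5 CKO 2, against 693 and 200 bp in Control 1 and 2, so the groups overlap. Both lost regions of the domain were in the flanks, at 70345890 to 70346443 (554 and 487 bp in Control 1 and 2) and at 70369901 to 70370395 (426 and 233 bp), with a −log10 q of at most 2.61. Bases under peaks in the whole domain were 1585 and 1154 bp in Snf5 CKO, against 4221 and 2296 bp in Control. No other protein-coding gene lies in this domain.

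Tcf21 (gene identifier 21412, chromosome 10, 22817263 to 22820143, minus strand) had few peaks and no region shared by all 4 libraries. A peak just inside its start, in the region 22819157 to 22819768, measured 326 bp in Snf5 CKO 1 and was missing in Snf5 CKO 2, against 369 and 612 bp in Control 1 and 2. Its −log10 q was 1.15 in Snf5 CKO 1 and 1.39 and 2.71 in Control 1 and 2, so it drops out with the minimum of 3. The peak began 375 to 539 bp into the gene from the start in the 3 libraries that had it and did not reach the promoter window.

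A distal region 13512 bp below the Tcf21 gene, at 22803201 to 22803751, was open in another set of libraries. It had a peak in both Snf5 CKO libraries, of 257 and 498 bp, and of 513 bp in Control 2, with none in Control 1. The authors' fold there was 3.82 and 5.41 in Snf5 CKO 1 and 2 and 4.91 in Control 2. Another region, at 22816146 to 22816560 near the lower-coordinate end, had a peak in Control 2 alone, of 415 bp with a −log10 q of 1.38. It counts in the gene-end length of that library. With all 3 regions, the domain held 583 and 498 bp under peaks in Snf5 CKO, against 369 and 1540 bp in Control. The Snf5 CKO values fell between those of the Control libraries.

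Maf (gene identifier 17132, chromosome 8, 115703253 to 115706894) had 1 region in its domain, kept, across its higher-coordinate end at 115705822 to 115708171. Peaks covered 1358 bp there in Snf5 CKO 1, in 2 pieces of 1137 and 221 bp, and 556 bp in Snf5 CKO 2. They covered 1605 and 2350 bp in single peaks in Control 1 and 2. The groups did not overlap, with means of 957 ± 567 bp in Snf5 CKO and 1978 ± 527 bp in Control (SD, n = 2 each) and a log2 ratio of -1.05. The Control 2 peak was wider than 99.8% of the peaks of its list but had a −log10 q of 2.51, so with the minimum of 3 that library had no Maf peak while the other 3 did.

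Gli1 (gene identifier 14632, chromosome 10, 127329882 to 127341579) had the most covered domain of the members as a share of its length. Peaks covered 4.66% and 4.61% of the domain in Snf5 CKO, against 10.3% and 9.28% in Control. This came to 2411 and 2383 bp in Snf5 CKO, against 5341 and 4795 bp in Control, with a log2 ratio of -1.08 and a gap between the groups larger than the spread in either. The domain also reaches Mars1, Arhgap9, Inhbe and Inhbc, and the strongest peak, at 127311005 to 127312571, lay at an end of Mars1, 17311 bp from Gli1. That peak was kept, with 1374 and 921 bp in Snf5 CKO and 1567 and 1535 bp in Control.

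Within Gli1 itself, a region at 127331941 to 127332742 was lost, with peaks of 549 and 714 bp in Control 1 and 2 and a −log10 q of 5.66 and 3.63. Another region in the gene, at 127338862 to 127339411, was kept, with 527 and 288 bp in Snf5 CKO and 451 and 200 bp in Control, so that the lengths overlap. At the higher-coordinate end there were 2 neighbouring regions. The inner one, at 127340776 to 127341593, was lost (566 and 445 bp in Control 1 and 2, −log10 q of 2.42 and 2.57). The outer one, at 127341961 to 127342628, was kept with 203 and 668 bp in Snf5 CKO and 523 and 587 bp in Control, but its −log10 q was 1.42 and 2.14 in Snf5 CKO and 5.41 and 4.70 in Control. Gli1 therefore counts as kept with all peaks and as lost with the minimum of 3.

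Ptch1 (gene identifier 19206, chromosome 13, 63508328 to 63573460, minus strand) had the largest number of regions, 9. Peaks covered 2697 and 1400 bp of it in Snf5 CKO, against 4945 and 4286 bp in Control, with a log2 ratio of -1.17. At the higher-coordinate end, the annotated start of the gene, 2 peaks of 231 and 272 bp were found in Snf5 CKO 1 and none in Snf5 CKO 2, against a single peak of 1219 and 1498 bp in Control 1 and 2. Their −log10 q was at most 2.69 in Snf5 CKO 1, and 3.75 and 3.10 in Control.

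The RefSeq start of Ptch1 lies farther inside the gene, in the kept region 63564987 to 63566472. The gene-end calls of Ptch1 used the outer annotated end and not this start. Every library had a peak with a −log10 q of 3 or more within 1 kb of this start, so the lost call depends on the start used. Neither Snf5 CKO library had a peak over this start, and both Control libraries did. The region was not closed in Snf5 CKO, because each of these libraries had a peak on either side of the start. In Snf5 CKO 1 the peaks measured 403 and 384 bp and were 697 bp apart, and in Snf5 CKO 2 they measured 273 and 502 bp and were 685 bp apart. Control 1 had 1 peak of 1363 bp across the start, and Control 2 had 2, of 1018 and 228 bp, with a gap of 240 bp upstream of the start. The −log10 q of the peaks was 3.12 to 4.38 in the Snf5 CKO lists and 2.68 to 3.90 in the Control lists. Their fold was 2.66 to 2.92 in the Snf5 CKO lists and 2.18 to 2.39 in the Control lists. Each was below the 10th percentile of its list, and the part of weak signal in the gap was not tested.

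**Figure D4:**
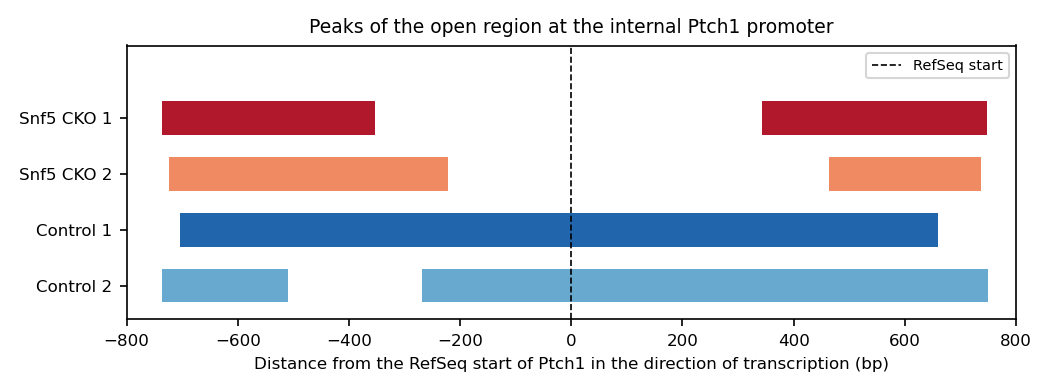
Peaks of the kept region at the internal promoter of Ptch1, by library, with distance in bp from the RefSeq start in the direction of transcription and a dashed line at the start. Both Snf5 CKO libraries have a gap over the start, of 697 and 685 bp, and both Control libraries have a peak across it.

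Another Ptch1 region, at 63567832 to 63568299, was kept with 339 and 402 bp in Snf5 CKO and 434 and 447 bp in Control, and had a −log10 q of 15.1 and 14.1 in Snf5 CKO 1 and 2 and of 11.1 and 8.05 in Control 1 and 2. In each Snf5 CKO list it was the highest among the member peaks, and in each Control list the region at the end of Mars1 stood above it with 14.8 and 14.8. At 63563056 to 63563549 a peak of 359 bp was found in Snf5 CKO 1 and none in Snf5 CKO 2, against 436 and 485 bp in Control. The 1 lost region, 63496666 to 63497280, had peaks of 566 and 610 bp in Control 1 and 2 and lay at an end of Fancc, 11048 bp below Ptch1. The remaining 4 regions had a peak in 1 library each, and among them were the 709 bp peak at 63528457 to 63529165 in Snf5 CKO 1 and the 586 bp peak at 63538712 to 63539297 in Control 1.

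The 2 PDGF receptor genes had no peak at a gene end in any library. In Pdgfra (gene identifier 18595, chromosome 5, 75151322 to 75198206, plus strand) a region in the gene, at 75155746 to 75156924, was kept. It held 515 and 703 bp under peaks in Snf5 CKO, against 715 and 431 bp in Control, so the groups overlap. The peak nearest to the RefSeq start lay 3513 and 3495 bp away in Snf5 CKO 1 and 2, against 902 and 3296 bp in Control 1 and 2. This start lies inside the annotated gene. The Control 1 peak, with a −log10 q of 1.43, was thus within 1 kb of the RefSeq start though not of a gene end. In the kept region a −log10 q of 3 or more was reached in both Snf5 CKO libraries (6.37 and 4.60) and in Control 2 (4.69) but not in Control 1 (2.44). Domain coverage was 515 and 703 bp in Snf5 CKO, against 947 and 798 bp in Control, with all peaks. With the minimum of 3 it was 515 and 703 bp in Snf5 CKO, against 0 and 231 bp in Control, so the order of the groups turned round, as in no other member.

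In Pdgfrb (gene identifier 18596, chromosome 18, 61045127 to 61085067) the only region inside the gene, at 61068131 to 61068724, was lost. Its peaks measured 592 and 270 bp in Control 1 and 2, with a −log10 q of 3.80 and 4.11 and a fold enrichment of 3.99 and 4.20. The other peaks of the domain lay below the gene toward Cdx1 and Gm52351. The largest, at 61035375 to 61036666, had 610 bp in Snf5 CKO 2 and none in Snf5 CKO 1, against 1292 and 978 bp in Control 1 and 2. A separate peak of 653 bp just below it, ending at 61035349, was found in Snf5 CKO 1 alone. Both regions lay within 1 kb of annotated ends of Cdx1 and Gm52351. Domain coverage was 1238 and 610 bp in Snf5 CKO, against 1884 and 1248 bp in Control, and the lower Control value was close to the higher Snf5 CKO value. With the minimum of 3 it was 653 and 0 bp in Snf5 CKO, against 1884 and 1248 bp in Control. Most of these bases lay in the regions at the ends of Cdx1 and Gm52351.

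Other genes of the same pathways and families were counted at the same gene-end windows, with no test against the members. Among all protein-coding genes, 55.0% were kept, 2.97% lost and 0.187% gained. Of 16 further Hedgehog pathway genes, 14 were kept, among them the signal transducer Smo and the effectors Gli2 and Gli3. None was lost or gained, and the ligand gene Shh had no gene-end peak in any library. Hhip, which encodes a Hedgehog-binding inhibitor, had the pattern of Ptch1, with 787 bp in Snf5 CKO 1 and none in Snf5 CKO 2, against 1241 and 1069 bp in Control. Over the 15 of them with peaks in both groups, gene-end length had a median log2 ratio of -0.27.

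Of 8 genes for PDGF ligands and related receptors, 4 were kept (Pdgfc, Pdgfd, Kit and Flt3), Pdgfb and Csf1r had no gene-end peak in any library, and none was lost or gained. Of 5 relatives of Nr2f2 and Maf, 4 were kept and Nrl had no peak. Of 7 mesenchymal basic helix-loop-helix genes, 6 were kept and Hand1 was lost, with 362 and 269 bp in Control 1 and 2. Across all protein-coding genes, 55.0% were kept, 2.97% lost, 8.29% open in part and 33.6% without a peak. Of 24 other gonadal stroma genes, 9 were kept, 3 lost, none gained, 4 open in part and 8 without a peak. The lost genes were Ptn, a growth factor gene with 252 and 288 bp in Control 1 and 2, Thy1, a surface glycoprotein gene with 251 and 269 bp, and Wnt5a, a signalling gene with 257 and 632 bp. With a −log10 q of 3 or more, Wnt5a was still lost, Hand1 and Ptn had no gene-end peak in any library and Thy1 was open in part. At that threshold Des and Col1a2 of the stroma genes, Twist2 of the helix-loop-helix genes and Hhip of the Hedgehog genes also counted as lost, so the lists had 3, 1 and 1 lost genes. The share of all protein-coding genes lost at that threshold was 3.84%, and 48.9% were kept.

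Marker genes of other cell types were compared at the same windows, since the sort was for germ cells. Germ cell markers were open at 11 and 11 of 12 genes in Snf5 CKO 1 and 2, against 12 and 11 in Control 1 and 2, and supporting cell markers at 9 of 10 in every library. Endothelial markers were open at 5 and 4 of 10 in Snf5 CKO, against 6 and 6 in Control, and blood markers at 2 and 2 of 10 in Snf5 CKO, against 2 and 3 in Control. The summed gene-end peak length of the germ cell list was 8907 and 7648 bp in Snf5 CKO, against 13270 and 12238 bp in Control. It was 8384 and 8743 bp in Snf5 CKO, against 13779 and 12081 bp in Control, for supporting cells, and 5242 and 5204 bp in Snf5 CKO, against 8498 and 8494 bp in Control, for endothelium. Surface epithelium markers were open at 2 and 1 of 7 genes in Snf5 CKO, against 4 and 4 in Control, with 1235 and 1069 bp in Snf5 CKO, against 3626 and 3087 bp in Control. For blood the sums were 1492 and 1556 bp in Snf5 CKO, against 1998 and 2270 bp in Control. In all 5 of these lists both Snf5 CKO sums lay below both Control sums, as they did for the 7 stroma members, and the part of this in the members' values was not tested. Among the defining stromal and supporting markers, Pdgfra, Pdgfrb, Dcn, Lum, Nr5a1 and Amhr2 had no gene-end peak in any library. An open gene end does not show which cells a peak came from, and whether stromal cells remained in the sort was not tested.

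**Figure D5:**
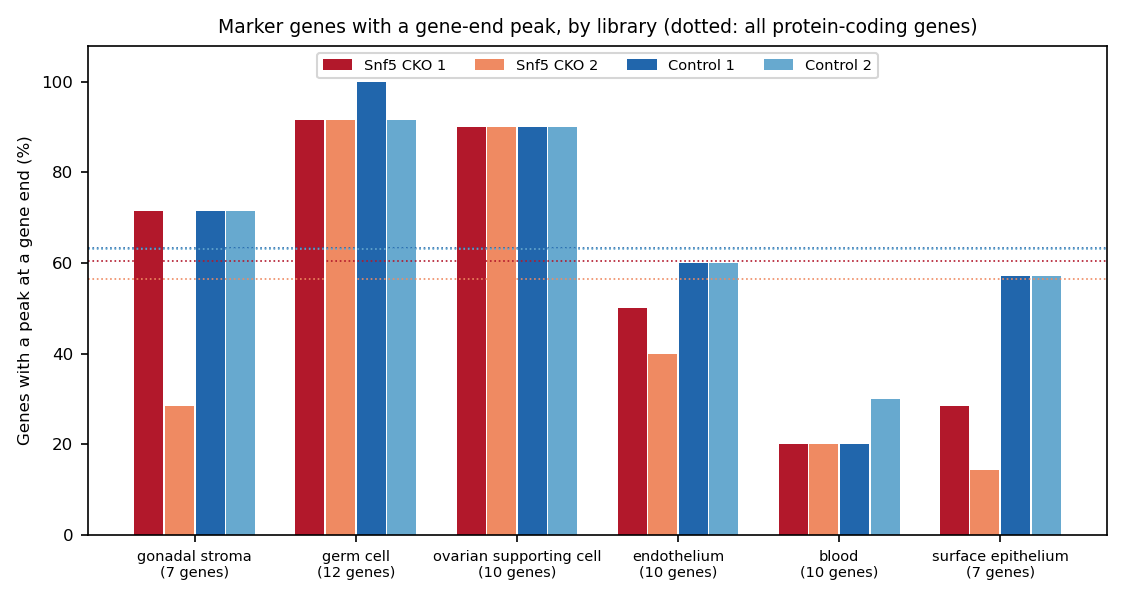
Percent of marker genes with a peak within 1 kb of a gene end, by cell type list and library, with dotted lines at the percent over all protein-coding genes (60.4 and 56.4 in Snf5 CKO 1 and 2, 63.3 and 63.0 in Control 1 and 2). The stroma bars are the 7 members, with 5 and 2 open in Snf5 CKO and 5 and 5 in Control.

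For each member the protein-coding gene most like it was found over 8 values, the log2 of bases + 100 bp under gene-end peaks and in the domain in each of the 4 libraries. The genes were Hoxb8 for Nr2f2, Ldoc1 for Tcf21, Aif1l for Maf, Rgs19 for Gli1, Cldn7 for Ptch1, Ifi27l2a for Pdgfra and Spdef for Pdgfrb, at Euclidean distances of 0.643, 0.934, 0.644, 0.767, 0.662, 0.225 and 0.206. Cldn7 had gene-end lengths of 356 and 0 bp in Snf5 CKO, against 1288 and 1406 bp in Control, beside 503 and 0 bp in Snf5 CKO and 1219 and 1498 bp in Control for Ptch1. Pdgfra and Pdgfrb had many such neighbours, 373 and 530 genes within a distance of 1, and Tcf21 had 1.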

How the data were processed

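ATAC-seq was measured in 4 libraries, 2 Snf5 CKO and 2 Control, grouped by their labels. Per the submitters' processing notes the build was mm10 and the tools were MACS2 2.2.7.1, Bowtie2 2.4.2, Picard 2.25.2, SAMtools 1.10 and Trim Galore 0.6.5, without their roles. Calling thresholds, duplicate handling and any transposase offset were not stated there. The authors deposited broad peaks per library, each with a fold enrichment (a ratio), a −log10 p, a −log10 q and a score of 10 times the −log10 q. Narrow or split peaks change lengths, and depth is unknown.

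Peaks were intersected with RefSeq genes of GRCm38.p6 in Python 3.11.15 with pandas 2.3.3 and merged where they overlapped by 1 bp. The functions were tested on simulated peaks. The gene table gives no strand, so strand came from the promoter table. The members, lists, windows and rules were chosen with earlier results of these data known. The text names all members, Smarcb1, and up to 3 lost or gained genes per list, and other list genes as examples after their values were seen. Alternatives are given in the closing section. The promoter sequence of Ptch1 is not reported here.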

Additional observations from a re-analysis of the deposited data

How the results depend on the processing

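No gain at gene ends was found under any of the 10 alternatives run for it. The median log2 ratios stayed negative under every alternative and within the spread between libraries, from -1.34 to -0.89 for gene-end length and from -1.36 to -0.76 for domain coverage. All 7 members give the domain values. The gene-end values rest on 5 members or fewer: 1 (Maf) with a −log10 q of 3 or more, 2 with lists of the same length or without Snf5 CKO 1, and 3 with windows of 500 bp, so they say little about stability. With a −log10 q of 3 or more, 2 members were lost and 0 kept at gene ends and 4 domain regions were kept. With lists of the same length of 28625 peaks, 1 member was lost and 0 were kept at gene ends, and 4 domain regions were kept. With windows of 500 bp, 1 member was lost. Leaving out 1 library at a time gave 0 to 3 members lost and 2 to 5 kept at gene ends, 8 to 11 domain regions lost, 1 to 4 gained and 9 to 12 kept. A call then asks for fewer libraries, so these counts can rise and can hardly fall. Without regions at the ends of other genes, an alternative chosen after the data were seen, 5 domain regions were lost and 7 kept, with a median log2 ratio of -0.98. With the replicate number as a block, added after the data were seen, ratios within same-numbered libraries gave medians of -1.34 over 2 members for gene-end length and -1.08 over 7 for domain coverage. The labels do not say that the numbers pair libraries. The counts of kept, lost and gained places come from no test and have no paired form. Unknown depth limits every statement that a peak is missing.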

Other observations

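Among markers of the ovarian surface epithelium, given above only as a list, 2 of 7 were lost at gene ends and 1 was kept, against 2.97% and 55.0% of all protein-coding genes. Of the rest, 1 was open in part and 3 had no peak in any library, against 8.29% and 33.6%. Krt7 had gene-end peaks of 1338 and 1001 bp in Control 1 and 2 and none in either Snf5 CKO library, with fold enrichments of 4.60 and 4.32. Krt19 had 334 and 200 bp in Control 1 and 2 and none in Snf5 CKO. Both encode keratins of simple epithelia. Krt7 was also lost with a −log10 q of 3 or more, and Krt19 had no gene-end peak at that threshold. There the list had 1 gene lost, none kept, 1 open in part and 5 without a peak. The shares over all protein-coding genes were 3.84%, 48.9%, 9.4% and 37.5%. Krt7 and Krt19 were named by the rule for lost members of a list and were not tested.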
